A study of Mus musculus with 2 samples.

Results

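The 9 genes described here encode the transcription factors and cofactors that set the red cell programme: Gata1, Klf1, Tal1, Zfpm1, Nfe2, Lmo2, Ldb1, Gfi1b and Hemgn. They were taken by symbol from the gene list deposited with the count matrices, in which 9 of 9 symbols were found once each among 26124 genes. Their unique molecular identifier (UMI) counts were followed through erythroid stages, macrophages that carried erythroid transcripts and the other cells of the spleen.

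The data were 2 droplet libraries of spleen cells enriched with magnetic beads against F4/80, a surface protein of mouse macrophages, after lysis of red cells. Each library was 1 mouse, aged 12 to 16 weeks and untreated, from a humanised haemoglobin line on a mixed background. Both mice were homozygous for Hbatm1Paz, which removes the mouse alpha globin genes. The mouse labelled wild-type was heterozygous for Hbbtm1Tow, which removes the adult mouse beta globin genes, and hemizygous for Tg(HBA-HBBs)41Paz, a transgene with human alpha and sickle beta globin. The mouse labelled SCD (sickle cell disease) was homozygous for both. The control mouse was thus a non-sickling carrier of the transgene and not an unmodified animal.

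After filtering, 19419 cells of the wild-type-labelled library and 12280 of the SCD-labelled library remained, with medians of 4115 and 4570 UMIs per cell. The libraries shared 107 cell barcodes, 65 of them among kept cells. The mouse beta globin transcript went against the labels: Hbb-bs made up 0.0141% of the UMIs of cycling erythroid cells in the wild-type-labelled library and 4.53% in the SCD-labelled library, the mouse homozygous for its deletion. Hba-a1, an alpha globin gene that Hbatm1Paz removes, was found in both at 2.52% and 2.84%. The libraries are therefore named by their labels only, and every direction between them rests on labels that this gene did not bear out. With 1 mouse per label there was no replicate error and no test. The intervals given in parentheses are 95% exact intervals of the counts (Poisson for levels, binomial for shares and for ratios of 2 counts), which cover counting error only.

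GATA1 binds GATA words in the promoters and enhancers of nearly all red cell genes, with FOG1 (the product of Zfpm1) as its cofactor. It is joined in one complex by TAL1, a basic helix-loop-helix protein, by the adaptors LMO2 and LDB1, which hold distant sites together, and, as a partner in repression, by GFI1B. KLF1 binds CACC-box sequences and drives adult beta globin, NF-E2 (p45, the product of Nfe2) pairs with small MAF proteins at globin control regions, and hemogen (Hemgn) is an erythroid nuclear protein. Red cell precursors mature around a central macrophage in the erythroblastic island (EBI), where they stop dividing, condense their nucleus and expel it.

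The genes lie on the mouse genome (GRCm38, GENCODE M21) at chrX:7959260-7978071 (Gata1), chr8:84901928-84905291 (Klf1), chr4:115056426-115071755 (Tal1), chr8:122282141-122337251 (Zfpm1), chr15:103248212-103258403 (Nfe2), chr2:103957986-103981878 (Lmo2), chr19:46031570-46045214 (Ldb1), chr2:28609450-28621982 (Gfi1b) and chr4:46393989-46413506 (Hemgn). Zfpm1 overlaps the gene model Gm20388 on the same strand, which the gene list also holds, so that its reads may have been split and its level is uncertain. Lmo2 and Ldb1 overlap a listed gene on the other strand only.

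Promoter windows were looked at because most members fell together along erythroid stages. RefSeq windows (GRCm38.p6, 250 bases before a transcript start) were held for 7 members in 10 windows. Nfe2 and Lmo2 had no window. AGATAA or TGATAA, on either strand, occurred in 5 of these windows, against 16.6% of 32851 windows of all genes. CCNCNCCC, a loose form of the CACC box, occurred in 8 windows against 45.9%. The following stretches of 100 bases, read 5′ to 3′ on the strand of the gene, show the GATA words of Klf1, Gfi1b and Tal1 and the CCNCNCCC matches of Gata1, in whose window no GATA word was found, with the matches in capitals. None of the stretches overlaps a GENCODE exon. Those of Klf1, Gfi1b and Tal1 lie just before the annotated gene, and that of Gata1 lies in an intron of the longer GENCODE gene model. They are at chr8:84901827-84901926 (plus strand), chr2:28622053-28622152 (minus strand), chr4:115056176-115056275 (plus strand) and chrX:7967912-7968011 (minus strand).
Klf1: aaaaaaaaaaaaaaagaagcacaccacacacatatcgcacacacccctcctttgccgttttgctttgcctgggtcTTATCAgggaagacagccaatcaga
Gfi1b: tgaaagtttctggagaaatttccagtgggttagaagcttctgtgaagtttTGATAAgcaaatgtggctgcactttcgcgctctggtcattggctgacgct
Tal1: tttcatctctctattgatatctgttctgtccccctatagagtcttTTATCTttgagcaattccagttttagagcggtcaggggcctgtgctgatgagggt
Gata1: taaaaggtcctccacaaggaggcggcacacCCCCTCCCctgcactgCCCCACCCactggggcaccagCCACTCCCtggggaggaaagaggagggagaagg
In these stretches Klf1 and Tal1 hold the word on the opposite strand (TTATCA and TTATCT), Gfi1b holds it in the direction of transcription (TGATAA), and Gata1 holds 3 CCNCNCCC matches. A match is a run of letters and not a binding site.

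Cells were clustered without the 9 members and without haemoglobin genes as input, and named by markers. Erythroid-like cells (3958 and 342 cells, 20.4% and 2.79% of kept cells of the libraries labelled wild-type and SCD) carried erythroid markers above the main B lymphocyte-like cluster, which served in each library as the level of free RNA. Levels are counts per 1000000 UMIs of the cell group (CPM). EBI-like cells (3683 and 730 cells) carried both erythroid and red pulp macrophage markers. Red pulp macrophage-like (RPM-like) cells (4867 and 1631 cells) carried the macrophage markers only, in clusters led by Marco and Cd5l or by Dock3 and Abcc5 in the wild-type-labelled library and mostly in one led by Rgs1 and Iigp1 in the SCD-labelled library. Lysis of red cells and the beads set which cells were caught, so the shares are not those of the spleen. Adgre1, the gene of F4/80, was at 690.0 and 752 CPM in RPM-like, 553 and 519.9 in EBI-like, 197 and 117 in cycling erythroid and 144 and 86.9 in B lymphocyte-like cells. Counts from the 3' end do not give levels per gene length, so a gene is compared with itself and not with another gene.

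In both libraries 8 of 9 members were at least 2-fold higher in erythroid-like than in B lymphocyte-like cells, where 16.2% of the genes with at least 100 UMIs were so in the wild-type-labelled library and 14.1% in the SCD-labelled library. The exception was Ldb1. Klf1, the activator of adult beta globin, reached 568 (559 to 578) CPM in the erythroid-like class of the wild-type-labelled library and 619 (586 to 653) in that of the SCD-labelled library, against 8.33 (4.85 to 13.3) and 0.658 (0.179 to 1.69) in B lymphocyte-like cells. Gata1 was at 163 (158 to 168) and 185 (167 to 204) CPM, against 1.96 (0.534 to 5.02) CPM and, in the SCD-labelled library, no UMI in B lymphocyte-like cells, which makes it at least 374-fold higher there by a floor of 3 UMIs. Gata1 and Klf1 were thus separated from the free RNA level by far more than the counting error in both libraries.

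Tal1 was at 875 (863 to 886) and 1063 (1020.2 to 1108) CPM among erythroid-like cells and at 16.2 and 1.98 in B lymphocyte-like cells. Hemgn, the member with the highest count, was at 1767 (1751 to 1784) and 2132 (2071 to 2195) against 23.0 and 3.46. Gfi1b, the repressor, was at 55.8 (52.9 to 58.8) and 74.5 (63.4 to 86.9) CPM and had no UMI in the B lymphocyte-like cells of either library, at least 38.0-fold and 151-fold higher. Outside the erythroid-like and EBI-like classes, the highest level of a named class was 65.2 CPM for Tal1 and 98.5 for Hemgn, both in neutrophil-like cells of the wild-type-labelled library. Zfpm1, the GATA1 cofactor, was at 357 (349 to 364) and 353 (329 to 379) CPM, and B lymphocyte-like cells kept 27.4 and 15.1 CPM of it, more than cDC2-like cells with 8.02 and 0.752.

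The adaptors behaved otherwise. Lmo2 was at 485 (476 to 493) and 544 (513 to 576) CPM in erythroid-like cells, but also at 129 and 164 in B lymphocyte-like, 115 and 139 in cDC2-like and 99.95 and 56.8 in RPM-like cells. Ldb1, the general bridging factor, was at 59.0 (56.0 to 62.1) and 75.9 (64.7 to 88.4) CPM in erythroid-like cells and at 70.1 (59.1 to 82.6) and 117 (108 to 126) in B lymphocyte-like cells, a log2 ratio of -0.25 (-0.50 to 0.01) and -0.62 (-0.88 to -0.37). T lymphocyte-like cells, a cluster led by Prg2 and Trbc2, held the highest Ldb1 level of the named classes, 97.4 (72.1 to 129) and 163 (128 to 205) CPM, from 103 and 89 cells, and in the wild-type-labelled library its interval overlapped that of the B lymphocyte-like cells. The plot of levels by class shows both adaptors as bands that run through all classes.

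**Figure D1:**
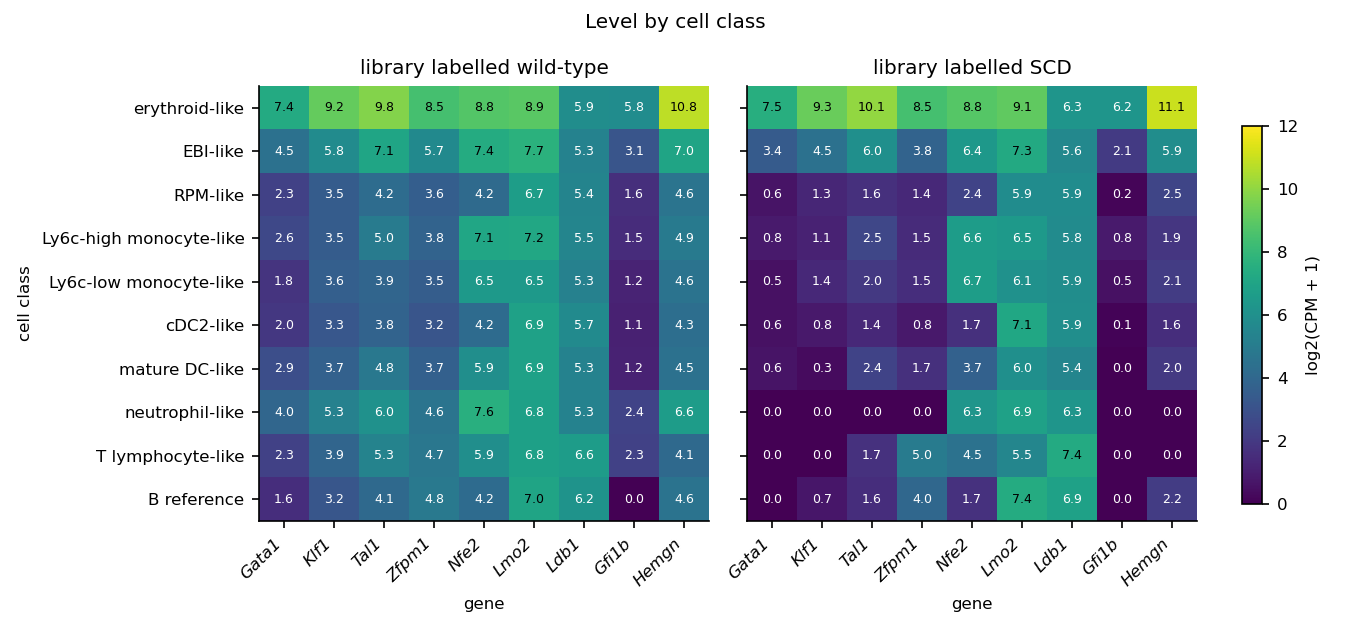
Levels of the 9 genes, as log2(CPM + 1) of summed UMIs, in 10 cell classes (rows) of the wild-type-labelled library (left) and the SCD-labelled library (right). Most genes stand out in the erythroid-like row, Nfe2 also in the monocyte-like and neutrophil-like rows, and Lmo2 and Ldb1 in every row.

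Nfe2, the p45 subunit of NF-E2, was also high in monocyte-like cells. Against 17.2 (11.9 to 23.9) and 2.30 (1.26 to 3.87) CPM in B lymphocyte-like cells, the Fn1- and Ccr2-led Ly6c-high monocyte-like cluster held 123 (115 to 133) CPM in 995 cells of the wild-type-labelled library and 97.6 (91.3 to 104) in 1417 cells of the SCD-labelled library. The log2 ratios were 2.85 (2.36 to 3.38) and 5.41 (4.65 to 6.28). In the same cells 9 and 8 of 9 erythroid markers were at or under their B lymphocyte-like level, with a summed level of 230.2 and 51.7 CPM against 390.1 and 52.5. Slc4a1, the red cell anion exchanger, was at 116 and 11.6 CPM against 179 and 15.1 in B lymphocyte-like cells, and Klf1 was at 5.15 and 1.003 CPM.

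Ly6c-low monocyte-like cells held 87.9 (76.4 to 100.66) and 103 (95.6 to 111) CPM of Nfe2, and a cluster led by the granule genes Mpo, Prtn3 and Elane held 153 (138 to 169) in its 212 cells of the wild-type-labelled library. A neutrophil-like cluster led by Ngp and Camp held 191 (172 to 211) CPM in 259 cells of that library, where Hemgn was also at 100.2 and Klf1 at 38.4 CPM, and the summed level of the 9 erythroid markers was 1253 CPM, 9 of them over 2-fold above B lymphocyte-like cells. The part of erythroid RNA in that Nfe2 level was not tested. cDC2-like cells, by contrast, were at 17.4 and 2.16 CPM, as low as the B lymphocyte-like cells. The order of Nfe2 in the SCD-labelled library was erythroid-like, then the Ly6c-low and Ly6c-high monocyte-like classes, at 103 and 99.3 (93.2 to 106) CPM with overlapping intervals, then EBI-like cells and neutrophil-like cells at 82.6 and 76.8 (28.2 to 167), with the lymphoid, dendritic and RPM-like classes below 22.3 CPM or at it.

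Erythroid-like cells were clustered once more, again without the members, and ordered by the log2 ratio of summed late over proliferation markers. Of 8 subclusters, 4 were led by erythroid genes. A Car1-led subcluster with replication genes such as Mcm3 and Mcm5 (915 and 95 cells in the libraries labelled wild-type and SCD) came first at an index of -1.78. A Ube2c-led one with mitotic genes (669 and 57 cells) followed at 0.31, an Xpo7- and Hspa1a-led late one (574 and 107 cells) at 5.62 and a Slfn14-led late one (1055 and 25 cells) at 5.79. The last carried macrophage RNA as well, with 8 of 8 red pulp macrophage markers over 2-fold above B lymphocyte-like cells in both libraries and a summed level of 12603 and 6774 CPM, against 6016 and 2127 in Xpo7-led and 4444 and 1738 in B lymphocyte-like cells. Of these markers Vcam1 was at 4532 and 3032 CPM there, against 1673 and 732 in B lymphocyte-like and 8475 and 8192 in RPM-like cells. The other 4 were led by genes of macrophages, dendritic cells, monocytes or B cells, and between 38.4% and 76.2% of their cells were taken as doublets. The 6 subclusters with an index under 2 are called cycling (2329 and 210 cells) and the remaining 2 late (1629 and 132 cells).

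From cycling to late cells, 7 of 9 members fell at least 2-fold in both libraries, where 29.9% of all genes with enough UMIs did so in the wild-type-labelled library and 56.0% in the SCD-labelled library. No member (0 of 9) rose 2-fold, against 5.47% and 8.53% of genes, shares so small that this count does not set the members apart. Nfe2 was close to the limit, with log2 ratios of 0.96 and 0.84. The median log2 ratio of late to cycling cells over the 9 members was -2.07 and -2.64, beside -0.40 and -1.25 over all genes. Late cells were also shallower, with medians of 2097 UMIs against 8021 in the wild-type-labelled library and 2515.5 against 7038 in the SCD-labelled library. The 8 macrophage markers moved with this contrast in the wild-type-labelled library, from a summed 5734 CPM in cycling to 9857 in late cells (2545 and 2679 in the SCD-labelled library). Without the Slfn14-led cells 6 and 7 members fell at least 2-fold. The late cells that were left, the Xpo7-led ones, held Nfe2 at 935 and 732 CPM, against 377 and 404 in cycling cells. Fewer molecules of a gene and a smaller share of it within all RNA cannot be told apart in CPM.

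Klf1 stayed level through the dividing cells and then fell. It was at 811 (791 to 832) CPM in Car1-led and 792 (767 to 818) in Ube2c-led cells of the wild-type-labelled library, and at 183 (164 to 203) in Xpo7-led and 23.0 (17.5 to 29.7) in Slfn14-led cells. In the SCD-labelled library the same 4 levels were 831 (771 to 896), 826 (732 to 929), 92.7 (62.1 to 133) and no UMI among 42220 UMIs, which allows up to 71.1 CPM. The intervals of the dividing and the late subclusters did not overlap in either library. Gata1 took the same course, from 228 (217 to 239) and 222 (209 to 236) CPM to 63.2 (52.3 to 75.8) and 14.4 (10.2 to 19.9) in the wild-type-labelled library, and from 273 (238 to 311) and 221 (174 to 277) to 32.0 (15.3 to 58.8) in the Xpo7-led cells of the SCD-labelled library.

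The GATA1 partners followed with different timing. Zfpm1 fell from 484 (464 to 505) CPM in Ube2c-led to 192 (172 to 213) in Xpo7-led cells of the wild-type-labelled library, and from 407 (342 to 481) to 144 (105 to 193) in the SCD-labelled library. Gfi1b and Ldb1 were already lower in Ube2c-led than in Car1-led cells. Gfi1b went from 94.3 (87.5 to 101.42) to 62.8 (55.7 to 70.5) and then 10.4 (6.24 to 16.2) CPM, and Ldb1 from 99.1 (92.2 to 106) to 42.4 (36.6 to 48.8) and 20.7 (14.7 to 28.4) CPM, in the wild-type-labelled library. In the SCD-labelled library the first step was 119.6 (97.3 to 145) to 53.1 (31.5 to 84.0) for Gfi1b and 127 (104 to 153) to 35.4 (18.3 to 61.9) for Ldb1. The repressor and the bridging factor were thus lower in the mitotic than in the replicating subcluster by more than the counting error in both libraries. Gata1, Klf1 and Zfpm1 had overlapping intervals in these 2 subclusters in both libraries.

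Tal1 and Hemgn, in contrast, rose before they fell. Tal1 went from 1038 (1016 to 1062) CPM in Car1-led to 1364 (1330.1 to 1398) in Ube2c-led cells and down to 520.1 (488 to 554) and 178 (162 to 195) in late cells of the wild-type-labelled library. Hemgn went from 2085 (2052 to 2117) to 2875 (2826 to 2925) and then to 456 (426 to 488) and 45.6 (37.7 to 54.6). The SCD-labelled library had the same course, with Tal1 at 1207 (1134 to 1284), 1771 (1632 to 1918) and 460.5 (388 to 542) CPM and Hemgn at 2308 (2206 to 2413), 3848 (3642 to 4063) and 307 (249 to 375) CPM. For both genes the intervals of these first 3 subclusters were apart in both libraries.

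Nfe2 and Lmo2 did not fall with the rest. Nfe2 was at 296 (284 to 309) CPM in Car1-led, 634 (611 to 658) in Ube2c-led, 935 (891 to 980.3) in Xpo7-led and 591 (561 to 621) in Slfn14-led cells of the wild-type-labelled library. In the SCD-labelled library it was at 292 (256 to 331), 770.3 (679.6 to 869.6), 732 (641 to 834) and 663 (441 to 958). Its level thus rose by more than 2-fold between the replicating and the Xpo7-led subclusters in both libraries, and the last 3 levels of the SCD-labelled library overlapped. The late over cycling log2 ratio was 0.96 (0.90 to 1.02) and 0.84 (0.63 to 1.05). Lmo2 was at 471 (456 to 487), 702 (678 to 727), 735 (696 to 775) and 304 (283 to 326) CPM in the wild-type-labelled library and at 444 (399.8 to 491), 817 (724 to 919.6), 819 (721 to 925) and 332 (181 to 556) in the SCD-labelled library, highest in the Ube2c-led and Xpo7-led subclusters, which overlapped. Its pooled late over cycling log2 ratio of -0.00356 (-0.07 to 0.06) and 0.60 (0.40 to 0.80) differed between the libraries, which held different proportions of Slfn14-led cells.

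**Figure D2:**
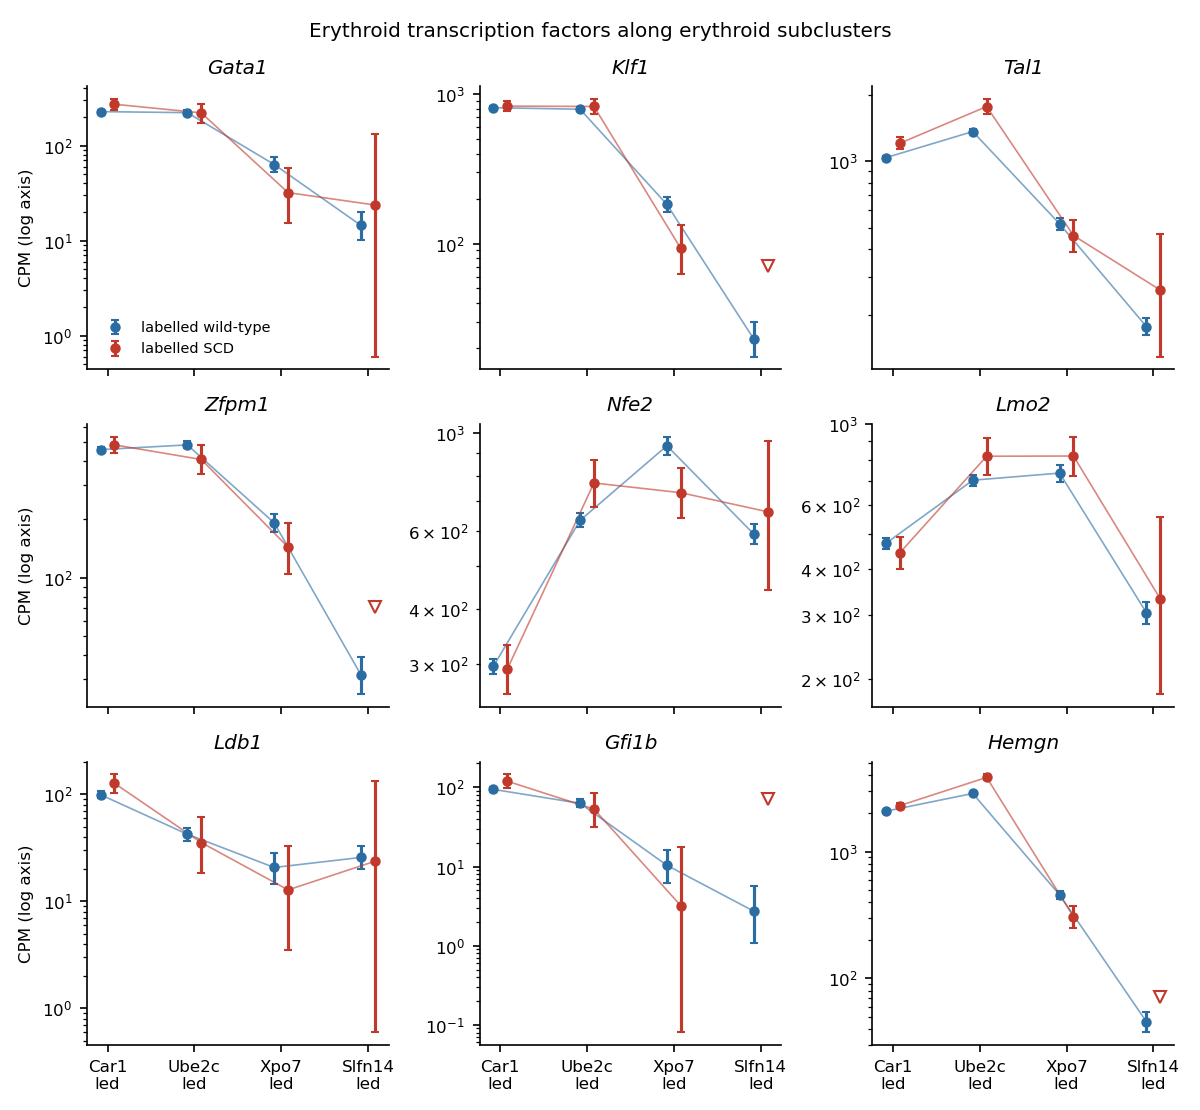
Level of each gene in CPM (log axis, its own range in each panel) over 4 erythroid subclusters in the order of the maturation index, for the wild-type-labelled library (blue) and the SCD-labelled library (red). Points carry 95% Poisson intervals and open triangles mark the 3-count limit where no UMI was found. Klf1, Gata1, Zfpm1 and Hemgn drop between the Ube2c-led and Xpo7-led cells while Nfe2 and Lmo2 do not.

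The number of members seen in a single cell was lower in late cells. After each cell was thinned to 1000 UMIs, which left out 108 and 3 shallower erythroid-like cells, a median of 3 and 4 of the 9 genes had a UMI in Car1-led cells, 4 and 4 in Ube2c-led, 2 and 2 in Xpo7-led and 1 and 1 in Slfn14-led cells (libraries labelled wild-type and SCD). Klf1 was found in 49.1% (47.0 to 51.2) and 51.0% (44.0 to 57.9) of thinned cycling cells and in 6.84% (5.62 to 8.22) and 7.75% (3.78 to 13.8) of late cells. Nfe2 was found in 33.3% (31.4 to 35.3) and 36.2% (29.7 to 43.1) of cycling and 49.9% (47.4 to 52.5) and 53.5% (44.5 to 62.3) of late cells. Lmo2 was found in 34.6% and 48.1% of late cells, and no other member in more than 24.8% and 31.0%, the shares of Tal1. In thinned B lymphocyte-like cells Klf1 was found in 0.942% and 0.0574%, Nfe2 in 1.88% and 0.172% and Lmo2 in 14.4% and 15.7%.

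Over all erythroid-like cells, thinned shares were 12.5% (11.4 to 13.6) and 14.5% (10.9 to 18.7) for Gata1, 48.5% (46.9 to 50.1) and 57.2% (51.8 to 62.6) for Tal1, and 53.4% (51.8 to 55.0) and 58.1% (52.7 to 63.4) for Hemgn. The same shares in B lymphocyte-like cells, of which 7 and 19 were left out as too shallow, were 0.314% and 0 of 1742 cells for Gata1 and 1.88% and 0.344% for Hemgn. Unthinned, with medians of 4641.5 and 4946.5 UMIs in erythroid-like and 2438.5 and 2901 in B lymphocyte-like cells, Gata1 was found in 45.2% and 46.5% and Hemgn in 65.2% and 69.3% of erythroid-like cells. Ldb1 was seen in fewer thinned erythroid-like cells, 3.82% (3.24 to 4.47) and 5.01% (2.95 to 7.91), than B lymphocyte-like cells, 7.38% (5.47 to 9.69) and 12.2% (10.7 to 13.9).

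Between the 2 libraries the members did not differ 2-fold in erythroid-like cells, and neither did most genes. In erythroid-like cells as a whole 0 of 9 members differed 2-fold, where 1.51% of genes were higher and 7.50% lower in the SCD-labelled library. This count is near the share of all genes and does not set the members apart. The log2 ratios of SCD over wild-type ran from -0.01 for Zfpm1 to 0.42 for Gfi1b. In cycling cells it was 0 of 9, against 1.44% of genes higher and 5.73% lower. In late cells it was 0 of the 8 members with at least 100 UMIs (Gfi1b had 26 and 1), against 2.00% and 40.1% of genes, whose median log2 ratio was -0.80. Slfn14-led cells were 1055 of the 1629 late cells of the wild-type-labelled library and 25 of 132 in the other. Library and subcluster cannot be told apart in the late comparison. Klf1 was at 89.5 and 81.7 CPM in late cells but at 183 and 92.7 in Xpo7-led cells alone.

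Small differences exceeded the counting error. In Car1-led cells Tal1 had a log2 ratio of 0.22 (0.12 to 0.31) and Hemgn of 0.15 (0.08 to 0.21), and in Ube2c-led cells Tal1 of 0.38 (0.25 to 0.50) and Hemgn of 0.42 (0.34 to 0.50), both higher in the SCD-labelled library. The interval lay above 0 for 5 of 9 members in Car1-led and 4 in Ube2c-led cells, and below 0 for 0 and 1 (Zfpm1). In Xpo7-led cells it lay below 0 for 4 members and above 0 for 0. Over all genes with at least 100 UMIs the median log2 ratio was -0.04 in Car1-led, -0.33 in Ube2c-led and -0.63 in Xpo7-led cells. Over the members with as many UMIs it was 0.15, 0.06 and -0.42. The lower levels in Xpo7-led cells thus do not set the members apart from all genes. Klf1 there had levels of 183 and 92.7 CPM and a log2 ratio of -0.98 (-1.58 to -0.43) from 335 and 29 UMIs, and Gata1 at 63.2 and 32.0, -0.98 (-2.08 to -0.05) from 116 and 10 UMIs. How much 2 mice with the same genotype would differ is not known from these data.

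Mouse globin transcripts took a larger share of the UMIs of the SCD-labelled library in each of these subclusters. Haemoglobin genes took 7.20% of the UMIs of Xpo7-led cells in the wild-type-labelled library and 26.6% in the SCD-labelled library, 4.29% and 17.7% in Ube2c-led cells and 2.05% and 6.54% in Car1-led cells. With totals that leave haemoglobin genes out, the log2 ratio in Xpo7-led cells was -0.64 (-1.24 to -0.09) for Klf1, -0.65 (-1.74 to 0.28) for Gata1, -0.02 (-0.22 to 0.18) for Nfe2 and 0.49 (0.29 to 0.69) for Lmo2. Of these 4, the interval of Klf1 then lay below 0 and that of Lmo2 above. In Ube2c-led cells the same totals gave -0.03 (-0.29 to 0.22) for Zfpm1, which was then no longer below 0, and intervals above 0 for Klf1, at 0.28 (0.10 to 0.45), and for Tal1, Nfe2, Lmo2 and Hemgn, at 0.44 to 0.64.

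**Figure D3:**
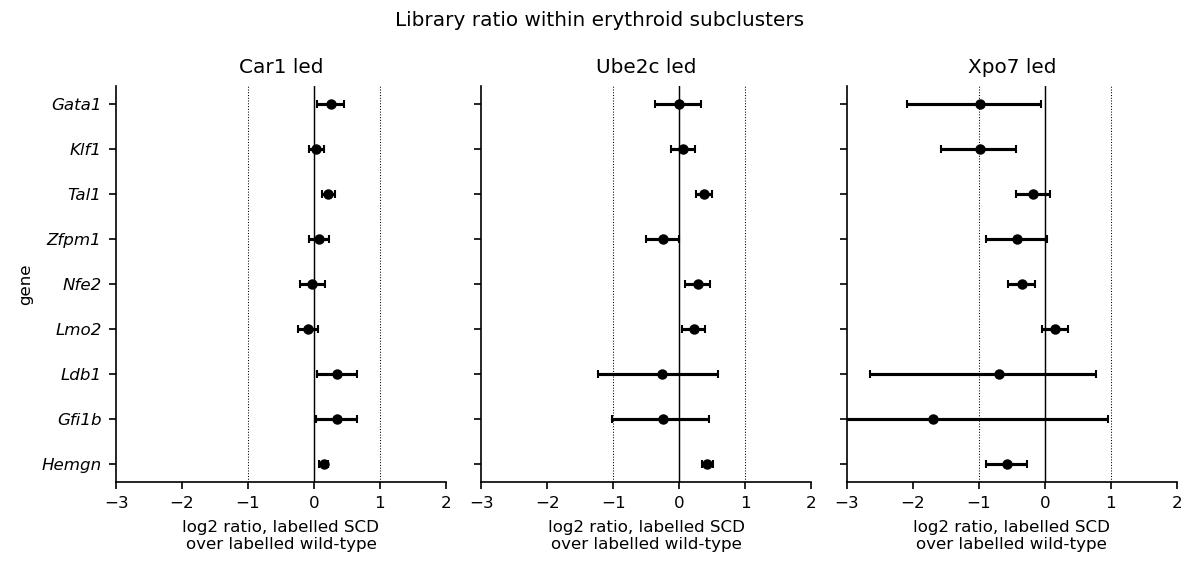
Log2 ratio of the level in the SCD-labelled library over the wild-type-labelled library for each gene in 3 erythroid subclusters, with 95% binomial intervals (the interval of Gfi1b in Xpo7-led cells, from 1 and 19 UMIs, runs past the left edge). Dotted lines mark 2-fold. In Car1-led and Ube2c-led cells all points lie within -0.26 and 0.42.

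EBI-like cells, macrophages with erythroid transcripts, held the members at a fraction of the erythroid-like level. In each library 8 of 9 were at least 2-fold lower than in erythroid-like cells, against 13.9% of genes in the wild-type-labelled library and 19.1% in the SCD-labelled library. Klf1 was at 54.9 (51.9 to 58.0) and 21.0 (16.2 to 26.7) CPM, and Nfe2 at 165 (159.8 to 170.4) and 82.6 (72.8 to 93.3). Both lay above the B lymphocyte-like level of their library. Ldb1 was the exception at 39.6 (37.0 to 42.3) and 48.3 (40.9 to 56.6) CPM. The class was made of 5 clusters whose leading genes pointed to different erythroid stages, so each was set beside one stage.

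An Xpo7-led EBI-like cluster (684 and 49 cells) held most of the factors and the erythroid markers at a similar fraction of the level in Xpo7-led erythroid cells of the wild-type-labelled library. In the wild-type-labelled library Gata1 was at 56.4% (44.5 to 71.9) of its level there, Klf1 at 45.2% (39.1 to 52.4), Tal1 at 46.4% (42.6 to 50.6), Nfe2 at 41.0% (38.4 to 43.8) and Hemgn at 48.1% (43.9 to 52.7). The 8 erythroid markers compared in this way ranged from 37.1% to 45.1%. Ldb1 departed, at 158% (111 to 231). In the SCD-labelled library the 8 markers were at 42.3% to 62.8%, and the members were more spread, with Zfpm1 at 35.8% (18.5 to 65.4), Nfe2 at 61.4% (49.1 to 76.4), Lmo2 at 63.3% (51.4 to 77.7), Tal1 at 67.8% (51.6 to 88.8), Klf1 at 96.2% (54.4 to 169), Hemgn at 103% (76.4 to 138) and, from 11 and 10 UMIs, Gata1 at 118% (45.5 to 310.0). The interval of Hemgn lay above all 8 marker values. Of the cells of this EBI-like cluster 14.7% were taken as doublets, against 0.294% of Xpo7-led erythroid cells. Its macrophage marker ratio of 3.37 was just over the limit of 3 for the EBI-like name. The part of doublets in the common fraction was not tested.

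A cluster led by Mt2, Car1 and Myb (545 and 32 cells) corresponded to the dividing end. Against Car1-led erythroid cells of the wild-type-labelled library, Klf1 was at 20.4% (18.8 to 22.2), Gata1 at 25.1% (21.7 to 28.9), Hemgn at 17.4% (16.5 to 18.4) and Gfi1b at 30.04% (24.3 to 36.9), while the 8 markers ranged from 19.6% to 50.3%. Its Myb level, the progenitor factor that falls as red cells mature, was 56.4 and 106 CPM against 10.9 and 5.98 in the Car1-led erythroid cells, higher in the EBI-like cluster. The erythroid genes Alas2 and Bpgm were at 50.3% (47.8 to 53.0) and 257% (232 to 286) of their Car1-led level in the wild-type-labelled library. Against Ube2c-led erythroid cells of that library, which also divide, Alas2 was at 20.5% (19.5 to 21.6), beside 20.9% for Klf1 and 21.6% for Tal1. Bpgm was at 45.5% (41.9 to 49.3) there. The higher fraction of Alas2 thus depended on the subcluster chosen for comparison. Of the cells of this EBI-like cluster, 23.6% were taken as doublets. Its macrophage marker ratio of 3.30 was also just over the limit of 3. With a limit of 4 neither this cluster nor the Xpo7-led one would be called EBI-like. The Slfn14-led EBI-like cluster (1385 and 34 cells) held, as a percentage of the Slfn14-led erythroid cells in the wild-type-labelled library, Nfe2 at 20.1% (18.6 to 21.8), Tal1 at 32.6% (28.8 to 37.0), Lmo2 at 47.9% (43.8 to 52.3), Klf1 at 55.6% (40.4 to 77.1), Zfpm1 at 56.3% (42.9 to 74.2), Hemgn at 60.4% (48.4 to 75.7) and Ldb1 at 153% (118 to 202). The 8 markers were at 21.8% to 37.7%, with a median of 26.0%. The median over the 8 members with at least 20 UMIs in the erythroid subcluster was 51.7%. In this EBI-like cluster Klf1, Zfpm1, Hemgn, Lmo2 and Ldb1 were at 12.8, 17.8, 27.5, 145 and 39.4 CPM, near or under their B lymphocyte-like level. Nfe2 and Tal1, at 119 and 58.0 CPM, were above theirs. The part of free RNA in the higher percentages was not tested.

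Another EBI-like cluster was led by Hba-x, Tent5c and Alas2 (1069 and 348 cells). Like the Mt2-led cluster when set against Car1-led cells, it held Alas2 and Bpgm at a higher fraction than most of the factors. The erythroid markers were spread as well, with a median of 14.3% beside 11.5% over 8 members in the wild-type-labelled library and 11.7% beside 4.38% over 6 members in the SCD-labelled library. Alas2, the first enzyme of haem synthesis, was at 2608 and 4816 CPM, or 50.7% (49.3 to 52.1) and 97.3% (91.6 to 103) of the level in Xpo7-led erythroid cells, and Bpgm, which makes the red cell's bisphosphoglycerate, was at 38.9% (37.6 to 40.4) and 77.0% (72.1 to 82.2). Nfe2 was at 4.82% (4.13 to 5.60) and 3.43% (2.00 to 5.55) of its level there, Tal1 at 5.37% (4.40 to 6.50) and 4.25% (2.27 to 7.36), and Klf1 at 10.8% (8.40 to 13.8) and 4.52% (0.881 to 14.6). In CPM, Nfe2 was at 45.1 (38.9 to 51.9) and 25.2 (14.9 to 39.8), above the B lymphocyte-like level in each library, and Klf1 at 19.7 (15.7 to 24.4) and 4.19 (0.865 to 12.3).

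Ldb1 in that cluster was at 162% (113 to 238) of its level in the Xpo7-led erythroid cells of the wild-type-labelled library and at 186% (60.6 to 759) of that in the SCD-labelled library, where the interval includes equal levels. Gfi1b, from few UMIs, was at 38.5% (18.8 to 78.3) in the wild-type-labelled library. Lmo2 was at 23.0% (20.9 to 25.2) and 17.6% (13.8 to 22.2) of the level, or 169 and 144 CPM against 99.95 and 56.8 in RPM-like cells. Membrane transcripts were spread. Slc4a1 was at 20.5% (19.9 to 21.1) and 15.8% (14.6 to 17.1). Ermap, another membrane gene, was at 3.71% (3.12 to 4.38) and 2.66% (1.60 to 4.17), Cldn13 at 4.60% and 1.90%, Rhag, the Rh-associated glycoprotein gene, at 7.26% and 3.05%, and Tspan33 at 9.67% and 7.53%, as low as the factors. The markers therefore did not keep one proportion in this cluster, where those of the Xpo7-led EBI-like cluster lay closer together. A further cluster of 267 cells, all from the SCD-labelled library and led by Hbb-bs, Adamdec1 and Rgs1, held Alas2 at 1291 CPM with Klf1 at 4.40 (1.90 to 8.68), Gata1 at 0.550 (0.0139 to 3.07) and Nfe2 at 19.3 (13.4 to 26.8) CPM. It too held Alas2 (26.1%) and Bpgm (16.9%) at a higher fraction of the Xpo7-led erythroid level than most factors. Klf1 was at 4.75%, Tal1 at 3.23%, Nfe2 at 2.63%, Lmo2 at 11.8% and Ldb1, from 103 and 4 UMIs, at 443%.

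**Figure D4:**
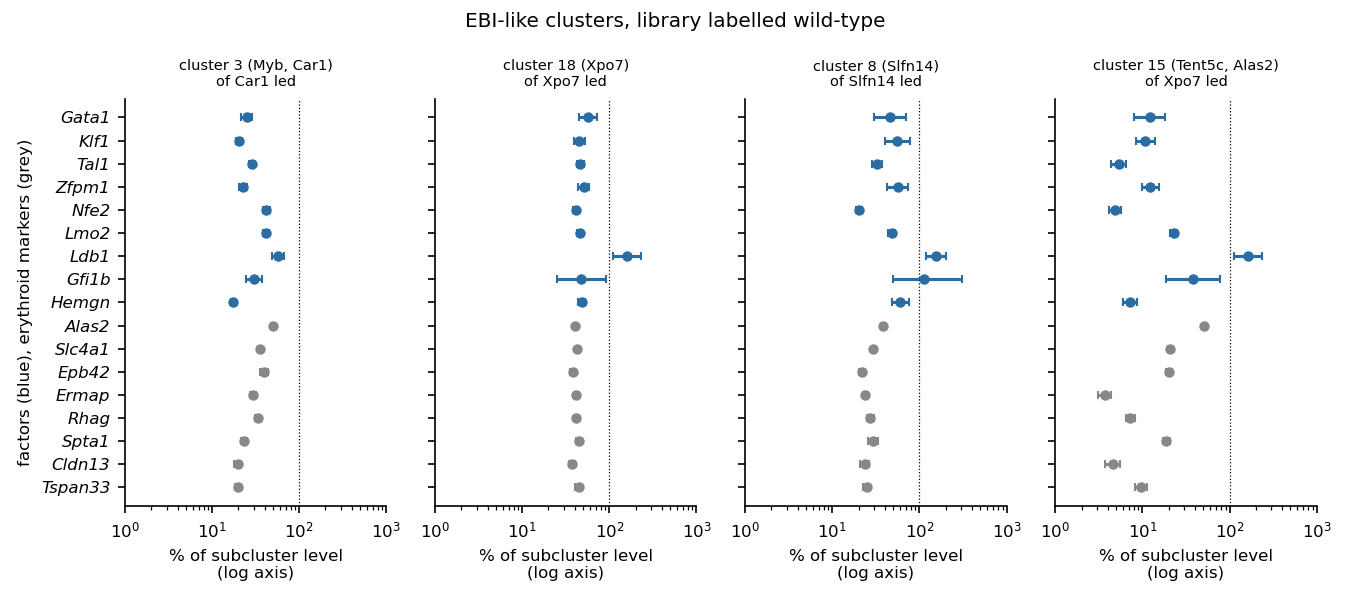
Level of each of the 9 factors (blue) and 8 erythroid markers (grey) in 4 EBI-like clusters, as a percentage (log axis) of its level in the erythroid subcluster named above the panel, in the wild-type-labelled library, with 95% binomial intervals. In the Xpo7 panel all genes but Ldb1 lie between 37.1% and 56.4%, while in the rightmost panel Tal1 and Nfe2 lie at 5.37% and 4.82% and Alas2 at 50.7%.

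Between the libraries, 6 of 9 members were at least 2-fold lower in EBI-like cells of the SCD-labelled library, against 7.22% of genes, and 0 of 9 higher, against 3.33%. With totals that leave haemoglobin genes out, 3 of 9 passed 2-fold, while the log2 ratios moved little, from -1.14 to -0.99 for Gata1, from -1.09 to -0.94 for Tal1 and from -1.11 to -0.96 for Hemgn, each with an interval below 0. The class held different clusters in the 2 libraries, mostly the Slfn14-led and the Alas2-bearing clusters in the wild-type-labelled library (1385 and 1069 of 3683 cells) and the Alas2-bearing and the Adamdec1-led clusters in the SCD-labelled library (348 and 267 of 730). Within the Xpo7-led cluster the log2 ratio was 0.11 (-0.52 to 0.68) for Klf1, 0.37 (0.05 to 0.68) for Tal1, 0.23 (-0.04 to 0.49) for Nfe2, 0.63 (0.38 to 0.87) for Lmo2, 0.52 (0.20 to 0.83) for Hemgn and -0.92 (-1.77 to -0.18) for Zfpm1, so that Zfpm1 was lower and Tal1, Lmo2 and Hemgn were higher in the SCD-labelled library by more than the counting error. Within the Alas2-bearing cluster it was -2.50 (-4.80 to -0.91) for Zfpm1 and -2.23 (-4.54 to -0.64) for Klf1, both from 3 UMIs in the SCD-labelled library, -1.10 (-2.13 to -0.21) for Hemgn, -0.84 (-1.63 to -0.14) for Nfe2, -0.51 (-1.43 to 0.29) for Tal1 and -0.23 (-0.54 to 0.07) for Lmo2. The median over all genes in this cluster was -0.54, with 1311 of 5787 at least 2-fold lower. The intervals of Hemgn, Nfe2 and Tal1 included that median. Over the 6 members with at least 100 UMIs, Klf1 not among them, the median was -0.68 and 2 were at least 2-fold lower. Without haemoglobin genes in the totals the intervals of Zfpm1, -2.11 (-4.41 to -0.52), and Klf1, -1.84 (-4.15 to -0.25), stayed below 0 and that of Nfe2 did not. The free RNA level also differed between the libraries, with Nfe2 in B lymphocyte-like cells at 17.2 against 2.30 CPM.

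RPM-like cells, macrophages without erythroid markers, showed no member 2-fold above the B lymphocyte-like cells: 0 of the 7 members with at least 100 UMIs in the wild-type-labelled library and 0 of 3 in the SCD-labelled library, where 17.3% and 18.6% of genes were. With so few members these counts do not set them apart from all genes. Macrophage clusters with erythroid markers at least 2-fold above the same B lymphocyte-like cells were called EBI-like instead. The naming thus partly sets this result. Klf1 was at 10.3 (8.88 to 11.9) and 1.46 (0.728 to 2.61) CPM, Tal1 at 17.9 (16.0 to 20.02) and 2.12 (1.21 to 3.44) and Hemgn at 23.2 (21.0 to 25.6) and 4.64 (3.23 to 6.45), all overlapping the B lymphocyte-like intervals. Lmo2, at 99.95 (95.4 to 105) and 56.8 (51.6 to 62.5), and Ldb1, at 41.4 (38.4 to 44.5) and 56.7 (51.5 to 62.4), were present in macrophages but below the B lymphocyte-like level. Klf1, Tal1 and Hemgn were lower in the SCD-labelled library in both classes.

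The partners of these factors did not share the erythroid pattern as a group. Of 22 listed partners and cofactors 20 had at least 100 UMIs, and 5 were at least 2-fold higher and 5 lower in erythroid-like than in B lymphocyte-like cells, in both libraries, with medians of -0.19 and -0.31 beside -0.21 and -0.57 over all genes. Among all genes 16.2% and 14.1% were that much higher, and 2252 of 10006 and 2944 of 8300 that much lower. Ssbp2, a single-stranded DNA-binding partner of LDB1, was at 86.9 and 97.7 CPM against 10.8 and 20.2. Lower were Tcf4, an E protein, at 69.9 and 55.8 against 608 and 584, Bcl11a, the repressor of embryonic globins, at 96.6 and 136 against 773 and 1113, and Myb at 6.11 and 3.26 against 46.6 and 32.8. Tcf4 and Bcl11a are known to be expressed in B cells, the reference here.

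From cycling to late cells 10 of 20 partners were at least 2-fold lower and 5 higher in the wild-type-labelled library, and 9 of 18 lower and 3 higher in the SCD-labelled library, where 29.9% and 56.0% of all genes were lower. The share in the SCD-labelled library was thus no higher than that of all genes. The small MAF partners of NF-E2, singled out after their values were seen, were on the higher side with Nfe2. Mafk was at 74.3 CPM in cycling and 457 in late cells of the wild-type-labelled library and at 65.8 and 313 in the SCD-labelled library, and Mafg was at 234 and 481 and at 204 and 451. Their log2 ratios were 2.62 and 2.25 for Mafk and 1.04 and 1.14 for Mafg. Bcl11a fell with Klf1 and Gata1, at -3.34 and -2.49.

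Of 12 other factors of red cells, 8 were at least 2-fold higher and 3 lower in erythroid-like than in B lymphocyte-like cells of each library. All genes gave 16.2% and 14.1% higher, and 2252 of 10006 and 2944 of 8300 lower. Sox6, which restrains embryonic globin, was at 696 and 765 CPM against 9.31 and 1.81, Mxi1, a MYC antagonist, at 184 and 262, E2f2, which acts in the terminal divisions, at 622 and 706 and Foxo3, a factor of terminal maturation, at 312 and 354. These 4 were not among those that fell: their late over cycling log2 ratios in the wild-type-labelled library were 0.05, 0.26, 0.50 and 0.90, and in the SCD-labelled library 0.15, 0.50, 0.54 and 1.18. Of the list as a whole 6 of 12 and 6 of 10 fell at least 2-fold, beside 29.9% and 56.0% of all genes, so that the share in the SCD-labelled library was near that of all genes.

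Most known targets of the factors were not 2-fold lower in late than in cycling cells. All 19 of the 20 listed targets that the files held were at least 2-fold higher in erythroid-like than B lymphocyte-like cells in both libraries, but 8 of these serve as erythroid markers in naming the cells, so this is no independent finding. Icam4, a red cell adhesion protein, was at 85.9 and 131 CPM, Ermap at 779 and 941 and Ank1, which encodes ankyrin, at 579 and 769. From cycling to late cells 1 target (Icam4, -2.84 and -2.96) fell at least 2-fold in each library, and 3 and 4 rose as much, with medians of 0.16 and 0.20. Of all genes 29.9% and 56.0% fell and 5.47% and 8.53% rose. Clusters in which the 8 naming markers had fallen far would not have been called erythroid-like. The naming thus partly sets this result. The members' medians over the same cells were -2.07 and -2.64.

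Myeloid factors were measured as markers of the macrophages and monocytes that the cells could carry. In erythroid-like cells 1 of the 9 listed was at least 2-fold above the B lymphocyte-like cells and 2 below in the wild-type-labelled library, and of the 8 with enough UMIs 0 were above and 2 below in the SCD-labelled library. For all genes 16.2% and 14.1% were above, and 2252 of 10006 and 2944 of 8300 below. The counts of this list are near these shares or under them. Irf4 was at 4.87 and 8.38 CPM against 116 and 112, Irf8 at 190.1 and 121 against 511 and 607 and Maf at 561 and 242 against 369 and 157. Cebpa was at 11.2 against 4.90 CPM in the wild-type-labelled library. In late against cycling cells the median was 0.67 and 0.15, above 0 where the members' medians were below it. Their part in that fall was not tested.

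The genes closest in pattern to each member were found over 39 groups of at least 50 cells (a cluster within 1 library), by Pearson's r of log2(CPM + 1) among 11041 genes, as a description only, since the groups share libraries and depth. For Gata1 they were Aqp1 (0.96), Slc38a5 (0.95), Dmtn (0.95), for Klf1 Apol8 (0.96), Gm867 (0.95), Slc38a5 (0.95) and for Hemgn Aqp1 (0.97), Slc38a5 (0.95), Sptb (0.95). For Tal1 they were Rhd (0.98), Dmtn (0.98), Cldn13 (0.97), for Gfi1b Smim1 (0.93), Tmem56 (0.93), Plek2 (0.92) and for Zfpm1 Pabpc4 (0.95), Odc1 (0.95), Pip5k1b (0.92). Among these Aqp1 encodes a water channel, Rhd an Rh protein and Sptb a spectrin. For Nfe2 they were Slc22a4 (0.94), Pnp (0.92), Atp2b4 (0.92), for Lmo2 Narf (0.94), Cul4a (0.91), Map4k5 (0.91) and for Ldb1 Aak1 (0.89), Ubr1 (0.89), Usp38 (0.88). Among the members, Klf1 and Hemgn (0.98) were the most alike pair, and Lmo2 and Ldb1 (-0.43) the least.

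Basophils, mast cells and megakaryocytes also use some of these factors. No kept cell (0 of 19419 and 0 of 12280, which allows up to 0.0154% and 0.0244%) had UMIs of at least 3 of 5 basophil or mast cell markers, and 1 cell in each library, each in the erythroid-like or EBI-like class, had UMIs of at least 3 of 7 megakaryocyte or platelet markers.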

How the data were processed

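Per the labels and the study's methods, the authors made droplet 3' libraries of bead-enriched spleen cells and deposited, for each library, a filtered matrix of raw counts (UMIs per gene and cell barcode) with lists of barcodes and genes. The submitters' processing notes name Cell Ranger 4.0.0, Seurat 3.2.3, Scanpy 1.6.0, R 4.4 and GRCm38.p6, while the matrix header names Cell Ranger 3.1.0. The matrices held 24144 barcodes and 145953464 UMIs (labelled wild-type) and 15442 barcodes and 73986356 UMIs (labelled SCD). Reads that map to several genes, human globin reads included, may have been lost or given to a mouse gene by that counting.

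After the study's methods, a cell was kept if it had 500 to 5000 genes and if mitochondrial genes took under 15% and ribosomal protein genes under 30% of its UMIs. Both libraries were clustered together (scran 1.30.0 size factors, scanpy 1.11.5, 2000 variable genes, 30 components, Leiden resolution 1). Clusters were named from marker lists, and those with erythroid markers at least 2-fold and macrophage markers at least 3-fold above the B lymphocyte-like cluster were called EBI-like. The limit of 3 was set after the first clustering was seen. Scrublet's threshold marked 0 cells in the wild-type-labelled library, so the 10% with the highest scores were taken as doublets there, against 13.7% in the SCD-labelled library. Doublets stayed in except in 1 alternative. UMIs were summed per class and library. Ratios were counted as 2-fold only for genes with at least 100 UMIs in the 2 groups together. A gene without a UMI was set to 3 UMIs as its upper limit. The ratio step was tested on simulated counts.

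The members, gene lists and comparisons were chosen with earlier results of these data known. All 9 members are named. Of each other list, up to 4 genes with the largest erythroid-like to B lymphocyte-like ratio are named, and for each member the 3 genes of most similar pattern. Of the known targets 3 are named, and 1 erythroid marker is not reported here on its own, though it is part of summed levels and counts. Ahsp, a listed marker and target, is not among the symbols and was not analysed here. Endothelial marker genes were searched for in single cells, and 0 cells had at least 3 of 5.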

Additional observations from a re-analysis of the deposited data

How the results depend on the processing

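The main counts of members past 2-fold, and the count of members found in at least 10% of erythroid-like cells, were recomputed with another gene minimum, without doublets, with totals that leave haemoglobin genes out, with size factors or each cell's own CPM, with other clusterings and stages, and with other thinning depths. Of 122 such values 119 stayed within 1.5 times the count reported. Members that rose from cycling to late cells, and library differences within cycling or late cells alone, were not recounted. Over the settings the late over cycling log2 ratio of Nfe2 ran from 0.76 to 1.51 in the wild-type-labelled library and from 0.66 to 1.79 in the SCD-labelled library. That of Lmo2 reached 0.63 and 1.64. The count of 0 members that rose 2-fold thus depended on the setting. The count of members lower in EBI-like cells of the SCD-labelled library went from 6 to 3 at Leiden resolution 0.5 and to 3 with totals without haemoglobin genes, where the log2 ratios of the lost members were close to -1 (Gata1 -0.99, Tal1 -0.94 and Hemgn -0.96, from -1.14, -1.09 and -1.11). The count higher in RPM-like than B lymphocyte-like cells of the SCD-labelled library went from 0 to 1 with a minimum of 200 genes per cell. The cause was not tested. Of 1026 single ratios and shares 653 stayed inside their interval, 373 moved outside it, and 0 of those at least 2-fold from equality changed sign. With each library clustered on its own, the SCD-labelled library gave no late erythroid subcluster, so late against cycling cells has no value there. A macrophage limit of 4, leaving out 4 subclusters led by genes of other cells and leaving out the Slfn14-led cells were chosen after seeing the data. The 42220 UMIs of the Slfn14-led cells of the SCD-labelled library limit what can be seen there. No paired analysis was possible because each label has 1 library.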
